A study of Mus musculus with 58 samples.

Results

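The collagen genes of the mouse were followed across lung, liver and forestomach. A gene was counted as a collagen gene when the symbol given by its array annotation was Col, a number, the letter a and a number, and 43 of the 20651 named genes on the array met this rule. They were read by 63 of the 55681 probes, and for the 14 genes with several probes the brightest one, by its mean signal over all arrays, was used. All mice were adult Muta™Mouse males, a strain that carries a bacterial reporter transgene for scoring mutations in every tissue, so the vehicle mice carried it too. They were about 13 weeks old and received olive oil (vehicle) or the polycyclic aromatic hydrocarbon indeno(123,cd)pyrene (IP) by oral gavage for 28 days at a daily dose of 12.5, 25 or 50 mg/kg-bw/day, and tissue was taken 72 h after the last dose. Each dose group held 5 mice in each tissue. The vehicle group held 5 mice for lung and 4 for liver and forestomach, although the extraction notes count 4 vehicle mice for every tissue. RNA came from random pieces of each organ, so every value is an average over all the cells in the piece. Fewer cells of a type and less RNA per cell cannot be told apart in such values.

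Collagens are triple-helical proteins of the extracellular matrix. Fibril-forming collagens (types I, II, III, V, XI, XXIV and XXVII) build the fibres that bear tension, type IV builds the sheet-like network of every basement membrane, type VI forms beaded filaments around cells, and type VII forms the anchoring fibrils that tie stratified epithelium to the tissue below. Fibril-associated collagens decorate fibres, transmembrane collagens sit in the cell surface, and the multiplexins (types XV and XVIII) carry sugar chains at basement membranes and can be cut to release antiangiogenic fragments such as endostatin. Fibroblasts, smooth muscle and stellate cells make most of the fibrillar collagen of an organ, while epithelial cells and endothelium contribute to basement membranes.

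The value for a gene was the log2 ratio of the mouse RNA (Cy5) over a universal mouse reference RNA pooled from cell lines (Cy3) on the same array, so 0 stands for the level in that reference. The dyes were not swapped. Ratios show how 1 probe differs between samples and were not used to rank one gene above another. The labelled tissues carried their own markers in vehicle mice: the alveolar type 1 list (5 of 5 genes) and type 2 and airway list (7 of 7) were well above background on every vehicle lung array, the hepatocyte list (9 of 9) on every liver array and the keratinized epithelium list (10 of 10) on every forestomach array. Some arrays stood apart. Within lung, 4 arrays, 1 in each dose group and all on 1 slide, had 83.8 to 90.7% of probes well above background against 53.0 to 70.4% on the other 16. In liver the same held for 5 arrays (66.6 to 78.9% against 37.6 to 45.0% on the other 14), none of them from vehicle mice, and in forestomach for 2 arrays (81.2 to 85.9% against 43.0 to 58.9%). Forestomach pieces also differed in content: the mean log2 ratio of 9 glandular stomach genes was 5.07 to 6.79 in 10 of the 19 arrays (3 of 4 vehicle mice, then 2, 2 and 3 of 5 mice by rising dose) and 0.61 to 2.02 in the other 9. Values without these arrays are given where they change a result. Lung and forestomach arrays shared 5 slides, whereas liver arrays lay on 3 other slides and were read with a later version of the scanner software, so liver against either other tissue and slide cannot be told apart. Nearly every dose group lay in its own array column, so dose and array column cannot be told apart either.

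Most of the family was measurable somewhere. The Cy5 signal was well above background on at least 50% of the arrays of all 3 tissues for 18 members, of 1 or 2 tissues for another 18, and of no tissue for 7 (Col2a1, Col9a3, Col10a1, Col11a1, Col19a1, Col22a1 and Col28a1). Lung had 26 members above background on every array, forestomach 23 and liver 15. Several of the 7 unmeasured members are collagens of cartilage, but other chains of types IX and XI were measured. Col9a2 was above background on at least 50% of the arrays in all 3 tissues. Col9a1 was so in lung (17 of 20) and Col11a2 in lung (15 of 20) and forestomach (13 of 19). Of the 11 cartilage marker genes, 1 was above background on all vehicle lung arrays, 1 on all vehicle liver arrays and 0 on all vehicle forestomach arrays. Col2a1, the main fibril collagen of cartilage, was above background on 3 lung arrays, 1 liver array and 0 forestomach arrays, and no difference in it was called.

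The 3 tissues differed in their collagen genes. A difference was called when the limma adjusted p was at most 0.05 and the fold change at least 1.5. Between vehicle lung and liver, 18 members were higher in lung and 5 lower, against 24.9% and 16.4% of all named genes (15.7% and 11.1% of all probes). Between forestomach and lung, 13 members were higher in forestomach and 5 lower, where 14.2% and 16.9% of named genes were (8.9% and 10.6% of probes). Forestomach was above liver for 19 members and below it for 4, where 21.4% and 15.3% of named genes were called (12.8% and 9.89% of probes). The higher calls were thus 41.9%, 30.2% and 44.2% of the 43 members. The median difference of the members was 0.15, 0.19 and 0.32 on the log2 scale in the same order, beside 0.0167, 0.0047 and 0.026 over all named genes.

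**Figure D1:**
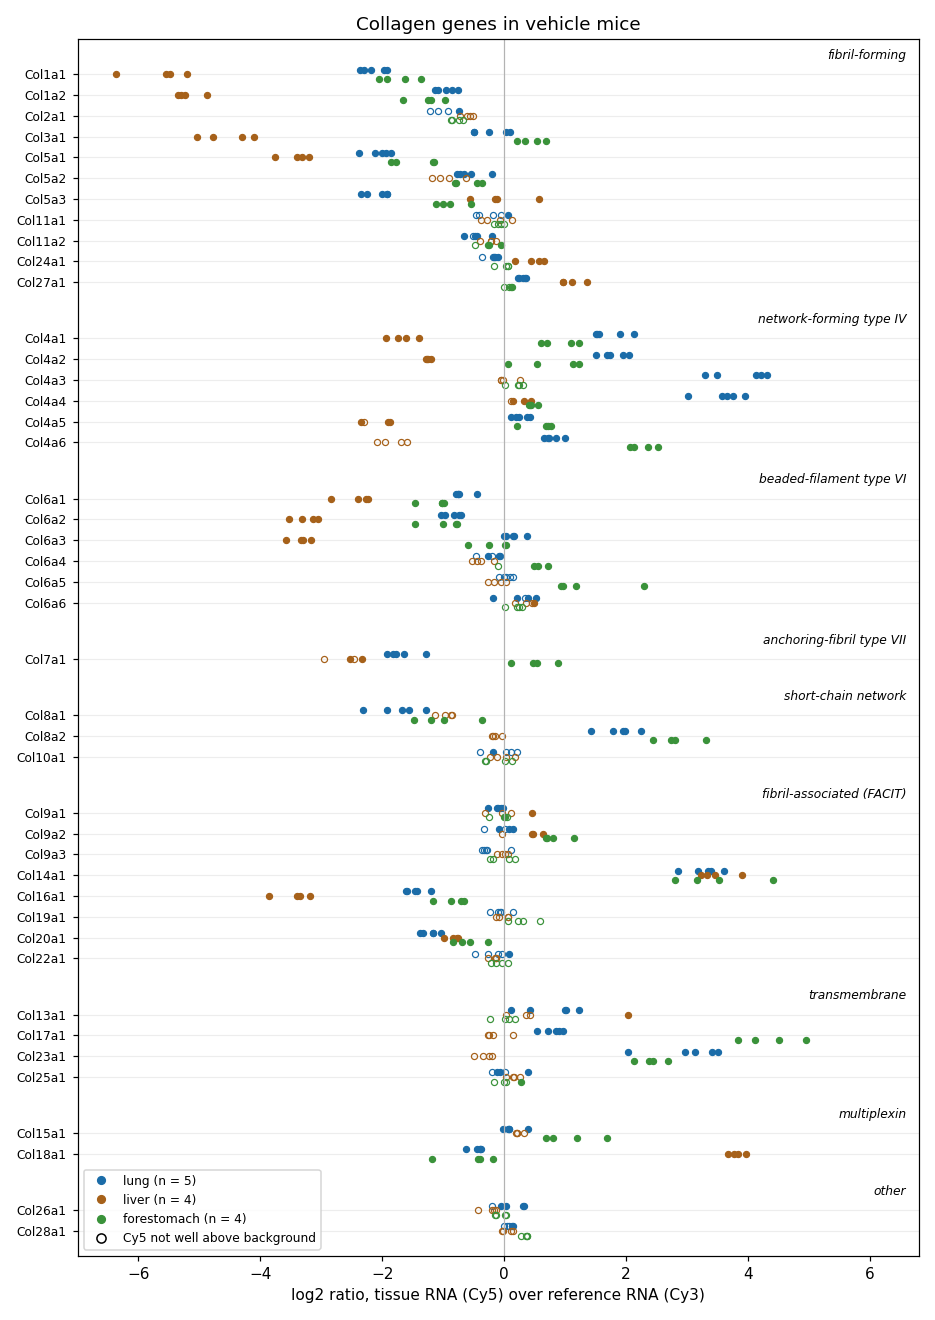
Log2 ratio of mouse RNA over reference RNA for the collagen genes in vehicle mice, with 1 point per mouse for lung (5 mice), liver (4) and forestomach (4), genes grouped by class and open circles where the mouse signal was not well above background. Col1a1, Col1a2, Col3a1, Col4a1, Col4a2 and Col4a5 sit lowest in liver, Col18a1 is highest in liver, and Col17a1 and Col7a1 are highest in forestomach.

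Among the 11 fibril-forming members, 4 were higher in lung than in liver and 3 lower. Col1a1 encodes the alpha 1 chain of type I collagen, the main protein of connective tissue fibres. Its log2 ratio in the vehicle lungs was -1.97, -2.29, -2.18, -2.37 and -1.92, in the livers -5.54, -6.37, -5.49 and -5.21, and in the forestomachs -2.05, -1.92, -1.63 and -1.37. Liver was thus low in every mouse and the other 2 tissues overlapped. The lung value exceeded the liver value by 3.50 ± 0.28 (SE), an 11.4-fold difference (limma adjusted p = 5.01e-16), and the forestomach value exceeded it by 3.91. Lung and forestomach were not called different, with an interval from -0.15 to 0.96. Its partner chain Col1a2 read -0.76, -1.13, -0.95, -1.08 and -0.86 in the lungs, -4.88, -5.35, -5.31 and -5.23 in the livers, and -1.65, -1.25, -1.20 and -0.97 in the forestomachs. That is 18.8-fold above liver in lung and 15.2-fold in forestomach (limma adjusted p = 2.84e-26 and 8.27e-24).

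Col3a1, the type III chain that accompanies type I in soft and distensible organs, read 0.10, -0.25, -0.49, -0.49 and 0.02 in the vehicle lungs, -4.30, -5.04, -4.77 and -4.11 in the livers, and 0.68, 0.22, 0.34 and 0.55 in the forestomachs. It showed the largest gap between forestomach and liver among the members above background in both tissues, 5.00 on the log2 scale or 32.1-fold (limma adjusted p = 9.18e-24). Forestomach exceeded lung by 0.67 (limma adjusted p = 0.0239). This call was lost without vehicle mouse 1, 3 or 4 (0.67, 0.64 and 0.60), without the glandular arrays (0.91, 1 vehicle forestomach left) and without the arrays that stood apart (0.60). It was also lost when arrays were centred on their median (0.33). Col5a1, which nucleates type I fibrils, was 2.57-fold higher in lung and 3.82-fold higher in forestomach than in liver. No tissue difference was called for Col5a2, its partner chain. That gene was above background on only 6 of 19 liver arrays, against all 20 in lung and all 19 in forestomach. Its gaps to liver are therefore poorly measured. Col5a3 ran the other way. This remaining type V chain read -0.14, -0.56, 0.57 and -0.11 in liver, -1.11, -0.995, -0.88 and -0.55 in forestomach, and -2.00, -2.35, -1.92, -2.25 and -1.92 in lung. Lung was 4.09-fold below liver (adjusted p = 4.85e-12) and 2.31-fold below forestomach. When arrays were centred on their median in place of the loess curve, both gaps kept their direction but were no longer called (-0.75 and 0.54). The large fibril collagen Col27a1 was likewise higher in liver, at 0.96, 1.36, 1.11 and 0.97 against 0.23 to 0.36 in lung and -0.01 to 0.14 in forestomach (differences of 0.80 and 1.02, adjusted p = 0.000115 and 6.45e-06, each lost with median centring). Col24a1 was 1.57-fold higher in liver than in lung, but it was above background on only 5 of 20 lung arrays, against 16 of 19 in liver. This call too was lost with median centring (-0.55 for lung minus liver).

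By the probe used for each, all 6 type IV genes were called higher in lung than in liver, 4 of them by 2.37 to 3.40 on the log2 scale. For Col4a3 and Col4a6 the amounts can only be bounded, since vehicle liver was not above background for them by that probe. The type IV genes encode the chains of the basement membrane network, which assemble as alpha 1 and 2 in nearly every basement membrane, as alpha 3, 4 and 5 in a few sites such as the lung and kidney, and as alpha 5 and 6 under stratified epithelium and around smooth muscle. The ubiquitous chain Col4a1 read 1.90, 2.13, 1.503, 1.53 and 1.56 in the vehicle lungs, -1.40, -1.94, -1.75 and -1.61 in the livers and 0.71, 0.60, 1.23 and 1.10 in the forestomachs. Its partner Col4a2 followed the same order with 2.05, 1.96, 1.51, 1.74 and 1.69, then -1.26, -1.19, -1.28 and -1.26, then 0.06, 0.53, 1.22 and 1.13. Lung therefore stood above forestomach and forestomach above liver for both chains. Lung exceeded liver 10.6-fold for Col4a1 and 8.2-fold for Col4a2, and forestomach was 1.76-fold and 2.07-fold below lung (limma adjusted p = 0.00039 and 0.000327).

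The alpha 3 and 4 chains were high in lung alone among the 3 tissues. Col4a3 read 4.32, 4.22, 3.29, 3.49 and 4.13 in lung, between -0.06 and 0.26 in liver and between 0.01 and 0.32 in forestomach. On the vehicle arrays of the last 2 tissues it was not well above background, so its difference is given as a bound: lung was at least 11.3-fold above liver and at least 11.0-fold above forestomach (adjusted p = 2.41e-20 and 4.12e-19). Such bounds set the bright group's mean Cy5 signal against a mean over the arrays of the dim group. On each dim array this took the larger of the gene's own signal and the dimmest signal that still counted as above background. The bounds stay exposed to dye bias because no dye was swapped. Col4a4 read 3.65, 3.57, 3.02, 3.76 and 3.95 in lung, 0.12 to 0.44 in liver and 0.40 to 0.56 in forestomach, gaps of 10.1-fold and 8.8-fold. Over all doses its lowest lung array still lay above its highest liver and forestomach array, as did that of Col4a3. The 4 lung arrays that stood apart read lower for Col4a4 (2.51 to 3.08 against 3.41 to 4.09 on the other 16).

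The alpha 5 and 6 chains gave another order. By its brightest probe, Col4a6 was highest in forestomach, with 2.07, 2.35, 2.13 and 2.53, intermediate in lung, with 0.65, 0.74, 0.86, 0.72 and 1.00, and not above background in vehicle liver. Forestomach exceeded lung 2.78-fold (adjusted p = 6.99e-08) and liver at least 14.5-fold, and lung exceeded liver at least 5.29-fold. Median centring left a forestomach excess over lung of 0.76 that was not called. The second probe of Col4a6 was dimmer by its mean signal but above background on all 58 arrays, 19 of them from liver. It showed none of these differences (-0.49, 0.19 and -0.30 for lung minus liver, forestomach minus lung and forestomach minus liver). The bounds against liver thus hold for the brightest probe only. Col4a5 read 0.24, 0.37, 0.12, 0.19 and 0.43 in lung, 0.69, 0.72, 0.21 and 0.77 in forestomach, and -1.90, -2.34, -2.29 and -1.87 in liver. Its lung and forestomach levels were not called different, while both stood above liver, 5.17-fold and 6.48-fold.

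Type IV genes lie in pairs that are transcribed away from each other, and the promoters of the pairs found in the promoter table are shown because the members of a pair are compared below. Each runs from 250 bases before to 50 after the gene's RefSeq start on GRCm38.p6, 5′ to 3′ on the gene's own strand. Capitals mark the GC box (GGGCGG) and the CCAAT box, each with its reverse complement. The letters TATAAA were searched as well and found in none of the 4 windows. Both strands were searched, and matches to different motifs were allowed to overlap. Col4a1 (chr8:11312777-11313076, minus strand, 74% G and C) and Col4a2 (chr8:11312555-11312854, plus strand, 73.7%) start 21 bases apart, so 78 bases of the windows are the same stretch read from opposite strands. Col4a6 (chrX:141474027-141474326, minus strand, 48.3%) and Col4a5 (chrX:141475169-141475468, plus strand, 52.7%) start 1343 bases apart.
Col4a1: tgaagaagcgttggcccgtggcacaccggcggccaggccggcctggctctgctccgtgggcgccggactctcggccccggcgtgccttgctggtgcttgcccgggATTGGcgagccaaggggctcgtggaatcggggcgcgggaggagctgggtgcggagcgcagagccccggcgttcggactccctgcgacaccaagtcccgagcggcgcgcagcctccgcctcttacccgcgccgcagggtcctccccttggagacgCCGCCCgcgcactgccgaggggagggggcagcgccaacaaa
Col4a2: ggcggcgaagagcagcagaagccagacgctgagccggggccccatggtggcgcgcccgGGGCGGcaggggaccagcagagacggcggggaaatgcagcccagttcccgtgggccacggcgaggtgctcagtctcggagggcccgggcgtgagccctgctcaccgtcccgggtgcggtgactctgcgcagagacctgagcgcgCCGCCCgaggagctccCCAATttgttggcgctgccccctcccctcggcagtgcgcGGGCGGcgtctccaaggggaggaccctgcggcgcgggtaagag
Col4a6: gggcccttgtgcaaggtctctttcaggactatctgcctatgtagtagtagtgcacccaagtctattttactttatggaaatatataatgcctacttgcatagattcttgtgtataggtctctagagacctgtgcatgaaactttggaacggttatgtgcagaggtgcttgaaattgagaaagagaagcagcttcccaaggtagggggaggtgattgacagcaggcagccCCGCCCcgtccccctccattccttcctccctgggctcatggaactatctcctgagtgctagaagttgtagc
Col4a5: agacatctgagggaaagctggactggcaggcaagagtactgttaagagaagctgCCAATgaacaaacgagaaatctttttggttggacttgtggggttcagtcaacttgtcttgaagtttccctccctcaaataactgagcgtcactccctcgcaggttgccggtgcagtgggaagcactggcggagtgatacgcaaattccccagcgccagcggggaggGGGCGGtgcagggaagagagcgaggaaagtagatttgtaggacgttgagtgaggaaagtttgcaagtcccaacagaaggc
The GC box count was 1 for Col4a1, 3 for Col4a2, 1 for Col4a6 and 1 for Col4a5, and the CCAAT box count was 1, 1, 0 and 1. Among all 32851 promoters of the table, 35.7% held a GC box, 37.4% a CCAAT box and 13.6% TATAAA. The table had 38 promoters for 35 of the 43 members, and 23, 13 and 5 of them held these motifs. These matches describe letters in the window and were not tested for any role.

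Type VI collagen, the microfilament that links cells to the surrounding matrix, is assembled from an alpha 1, an alpha 2 and a further chain such as alpha 3. The 3 common chains followed the order of the type I genes. Col6a3 read 0.16, 0.15, -0.01, 0.04 and 0.38 in the vehicle lungs, -3.16, -3.58, -3.30 and -3.33 in the livers, and 0.03, -0.60, -0.25 and 0.01 in the forestomachs. Lung was 11.2-fold and forestomach 8.82-fold above liver. Col6a1 and Col6a2 exceeded liver 3.34-fold and 5.29-fold in lung, and 2.49-fold and 4.77-fold in forestomach, and none of the 3 chains was called different between lung and forestomach. Of the chains that can replace alpha 3, Col6a5 was seen in forestomach. It was above background on 19 of 19 forestomach arrays, 1 lung array and 0 liver arrays, with 0.96, 2.30, 1.17 and 0.94 in the vehicle forestomachs. That put forestomach at least 2.05-fold above lung and at least 1.88-fold above liver, although a second Col6a5 probe differed by only 0.05 and 0.14. Col6a4 was called higher in forestomach than in lung by 0.63 while its mice overlapped, with a second probe again near 0. Over the forestomach arrays its median was 0.53 with glandular markers, which 3 of the 4 vehicle pieces carried, and -0.08 without, and their part in the call was not tested. Col6a6 showed no call.

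Forestomach is lined by keratinized stratified epithelium, and the 2 collagens that anchor such epithelium were highest there. Col17a1, a transmembrane collagen of the hemidesmosome, read 4.96, 4.11, 3.84 and 4.52 in forestomach, 0.85, 0.54, 0.72, 0.96 and 0.90 in lung, and -0.26, -0.18, 0.14 and -0.24 in liver, where it was not above background. The forestomach value was 11.8-fold above lung (adjusted p = 6.32e-17) and at least 15.6-fold above liver, and lung was at least 1.39-fold above liver. Col7a1, the anchoring fibril collagen, read 0.12, 0.88, 0.54 and 0.47 in forestomach, -1.77, -1.82, -1.29, -1.93 and -1.64 in lung, and -2.46, -2.96, -2.33 and -2.52 in liver. Every forestomach was above every lung and every lung above every liver. The gaps were 4.57-fold and 1.84-fold (adjusted p = 9.92e-11 and 0.00254). In the same mice all 10 genes of the keratinized epithelium list were called higher in forestomach than in lung, while of the 10 basal keratinocyte genes 5 were higher and 3 lower.

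Another transmembrane collagen, Col23a1, was high in lung (3.51, 3.42, 2.04, 3.13 and 2.96) and forestomach (2.45, 2.13, 2.37 and 2.69) and not above background in vehicle liver. It stood at least 8.72-fold above liver in lung and at least 4.79-fold in forestomach, and its dimmer probes differed from liver by 2.52 and 1.18 in lung. The 4 lung arrays that stood apart gave its 4 lowest lung values (1.95 to 2.32 against 2.72 to 3.58). Col13a1, found at cell-matrix junctions, was lower in forestomach than in lung by 0.74 and than in liver by 0.70. Both calls were weak. The mice overlapped, and with vehicle arrays alone in the fit neither was called. The forestomach and lung call was also lost with the mouse as a block (-0.62) and without mouse 1, 4 or 5 (-0.59, -0.62 and -0.70). The liver gap rested on vehicle mouse 2, at 2.03 beside 0.35, 0.42 and 0.04 (0.31 lower without it), and was lost without mouse 1 too (-0.74).

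Liver stood out for Col18a1, the multiplexin that gives rise to endostatin. Its log2 ratio was 3.96, 3.84, 3.67 and 3.76 in vehicle liver, -0.40, -0.38, -0.40, -0.63 and -0.45 in lung, and -1.19, -0.18, -0.39 and -0.42 in forestomach. Liver therefore exceeded lung 19.2-fold and forestomach 20.4-fold (limma adjusted p = 3.44e-27 and 1.43e-26), and the second Col18a1 probe gave gaps of 5.03 and 4.77 on the log2 scale in the same direction. Over all doses its 19 liver arrays ran from 3.62 to 4.15, a narrow range. The other multiplexin, Col15a1, was higher in forestomach than in lung by 0.97 and at least 1.71-fold above liver, while its dimmer probes differed little.

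The fibril-associated and short-chain collagens gave fewer calls. Col14a1, which binds the surface of mature fibrils, was far above the reference in all 3 tissues, and its brightest probe was not called different between any of them. Its second probe was above background on all 58 arrays as well and was called lower in lung than in liver, by 0.82. The brightest probe read 3.39, 2.85, 3.18, 3.35 and 3.62 in the lungs, 3.32, 3.23, 3.47 and 3.90 in the livers, and 4.42, 2.80, 3.16 and 3.53 in the forestomachs. Its intervals for the 3 differences ran from -1.01 to 0.61, -0.61 to 1.01 and -0.86 to 0.86. These intervals still allow a 2-fold difference between lung and either other tissue. Like the type I genes, Col16a1 was lowest in liver, with lung 3.96-fold and forestomach 6.05-fold above it by its brightest probe. Unlike them, it was also called higher in forestomach than in lung, by 0.61. Its other probes differed between lung and liver by only 0.04 and 0.32. Col8a2, a short-chain collagen of endothelial and epithelial sheets, was at least 3.42-fold above liver in lung and at least 6.26-fold in forestomach, again with a second probe that did not follow (-0.39 and -0.13). Its partner Col8a1 had no settled order between lung and liver: the ratio called lung lower by 0.79, yet the gene was above background on 5 of 5 lung arrays and 0 of 4 liver arrays, and the Cy5 signal alone placed lung higher by 0.68. Col9a2 and Col20a1 were higher in forestomach than in lung by 0.87 and 0.63.

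The same comparisons within each exposed group used other mice. Of the 23 lung against liver calls, 20 held in the same direction in all 4 dose groups (18 higher and 2 lower, against 22.3% and 13.3% of named genes). Col8a1, Col24a1 and Col27a1 dropped out. Between forestomach and lung 12 of 18 held (7 higher and 5 lower, against 10.7% and 14.3%), without Col6a4, Col8a2, Col9a2, Col15a1, Col16a1 and Col20a1. Between forestomach and liver 18 of 23 held (17 higher and 1 lower, against 17.6% and 12.4%), without Col5a3, Col6a4, Col13a1, Col15a1 and Col27a1.

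Genes that make, bind and remodel collagen also differed between tissues, and their lists are given as counts. Of 31 genes of collagen biosynthesis and crosslinking, 18 were called higher and 4 lower in vehicle lung than in liver, with Pcolce2, an enhancer of procollagen processing, at 4.41 and P4hb, a prolyl hydroxylase subunit that also folds other secreted proteins, at -1.82. Against lung, 4 of the 31 were higher and 12 lower in forestomach, led by P3h1 at 1.504 and Pcolce2 at -4.36, and against liver 15 were higher and 6 lower, led by Serpinh1, the collagen chaperone, at 3.26 and Bmp1, the procollagen C-proteinase, at -2.52. The list medians were 0.92, -0.25 and 0.42.

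Of 17 basement membrane partners such as laminins and nidogens, 14 were higher and 1 lower in lung than in liver, and 0 were higher and 11 lower in forestomach than in lung, with the peroxidase Pxdn, which crosslinks type IV collagen, at -2.34. This is the order that Col4a1 and Col4a2 showed. Among 13 small proteoglycans and fibril partners, 7 were higher and 2 lower in lung than in liver (Ogn 5.35 and Omd -1.78), 3 higher and 2 lower in forestomach than in lung (Lum 2.95 and Ogn -0.92), and 9 higher and 2 lower in forestomach than in liver. Of 10 collagen receptors, 8 were higher and 0 lower in lung than in liver, with the receptor kinase Ddr2 at 3.73, and 4 were lower in forestomach than in lung, with the collagen uptake receptor Mrc2 at -1.77. The degradation list (12 genes) had 8 higher and 1 lower in lung than in liver (Timp2, an inhibitor of collagenases, at 5.34 and the collagenase Mmp13 at -0.74), and 1 higher (Fap at 0.95) and 7 lower in forestomach than in lung (Mmp3 at -3.40). Of 15 genes of the TGF-beta pathway, which drives collagen transcription in fibroblasts, 14 were higher in lung than in liver, with Ccn2 at 4.27, and 9 were lower in forestomach than in lung, with Ltbp2 at -3.31.

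Cell type markers also differed between the tissues, and the shares of all named genes called in the same comparisons are given above. Of 12 fibroblast markers, 10 were higher and 0 lower in lung than in liver, 11 higher and 0 lower in forestomach than in liver, and 4 higher and 6 lower in forestomach than in lung. Smooth muscle markers were higher in lung than in liver for 8 of 9 and in forestomach than in either tissue for 9 of 9. Endothelial markers were higher in lung than in liver for 8 of 9 and lower in forestomach than in lung for 8 of 9. Between forestomach and liver, 1 of them was higher and 2 lower in forestomach. Of 9 hepatic stellate cell markers, 3 were higher and 5 lower in lung than in liver. The part of cell content in the collagen differences was not tested.

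Exposure to IP was then compared with vehicle within each tissue. No collagen gene was called at any dose in any tissue. By the same rule, 0, 0.0126 and 0.079% of all probes were called in lung by rising dose (0, 7 and 44 probes), and 0% at every dose in liver and forestomach. At an unadjusted limma p under 0.05, 1, 4 and 3 members passed in lung by rising dose (3.92, 6.53 and 8.8% of probes did). In liver 2, 4 and 6 members passed (2.6, 4.44 and 6.87% of probes), and in forestomach 4, 4 and 1 (4.12, 3.6 and 3.89%). The median difference of the 43 members lay between -0.06 and 0.02 in all 9 comparisons. Among the members above background on every array of both groups, the 95% interval of the difference stayed inside 1.5-fold in both directions for 21 or 22 of 26 in lung and 9 to 11 of 15 in liver, but for 3 to 6 of 24 to 26 in forestomach.

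**Figure D2:**
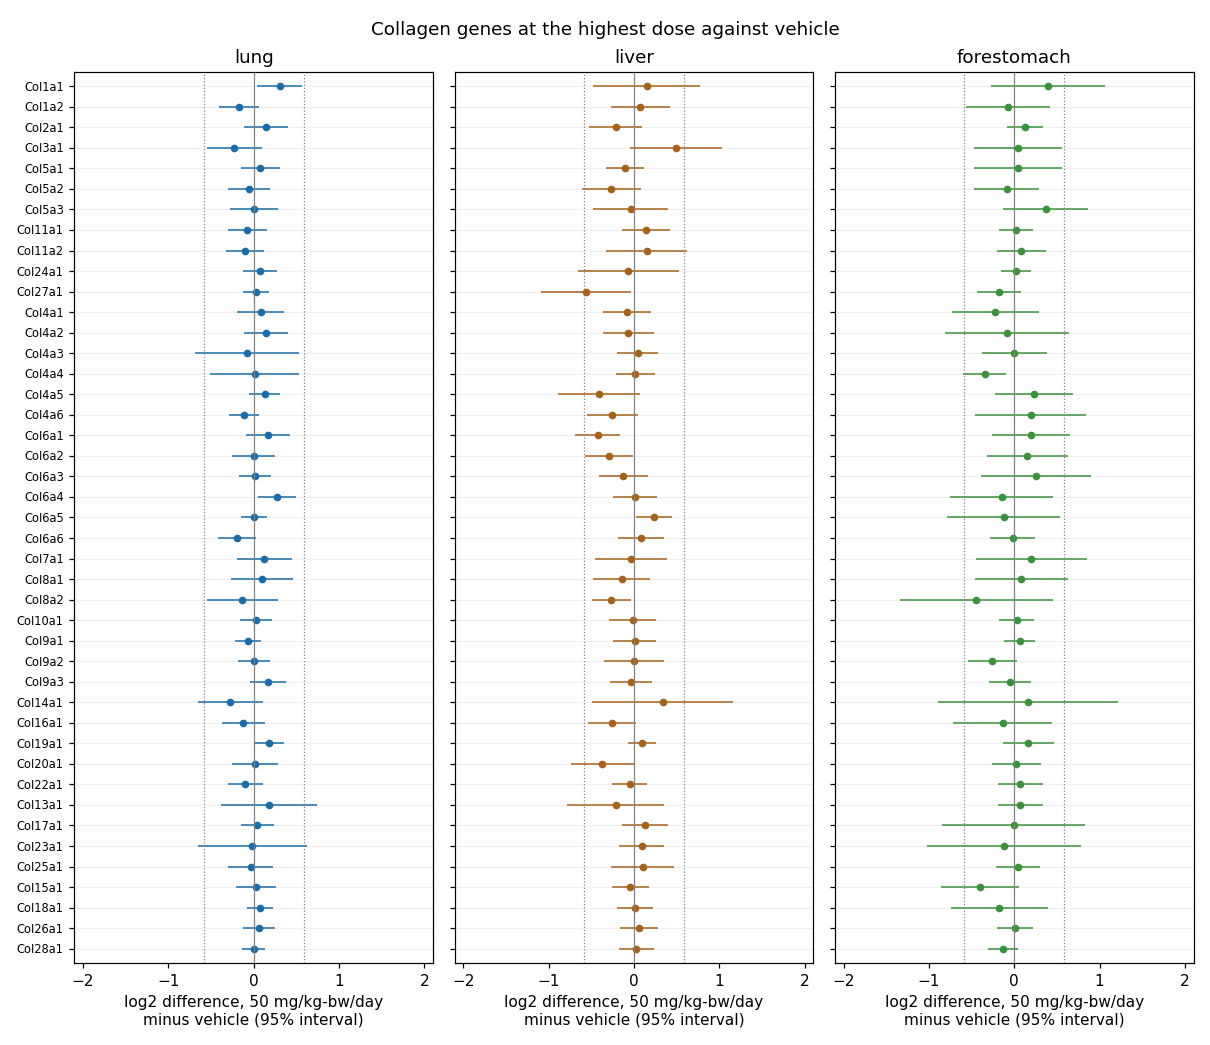
Difference in log2 ratio between 50 mg/kg-bw/day and vehicle for each of the 43 collagen genes in lung, liver and forestomach, with its 95% interval from limma and dotted lines at a 1.5-fold change. Differences ran from -0.27 to 0.30 in lung, -0.57 to 0.49 in liver and -0.45 to 0.40 in forestomach, and the widest intervals were in forestomach.

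The members that marked each tissue stayed close to vehicle at the highest dose. Col4a3 in lung differed by -0.08 (interval -0.69 to 0.53), Col18a1 in liver by 0.01 (-0.20 to 0.22), Col17a1 in forestomach by -0.01 (-0.85 to 0.83) and Col7a1 in forestomach by 0.20 (-0.45 to 0.85). The interval for Col18a1 excludes a 1.5-fold change, and those for the other 3 genes do not.

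**Figure D3:**
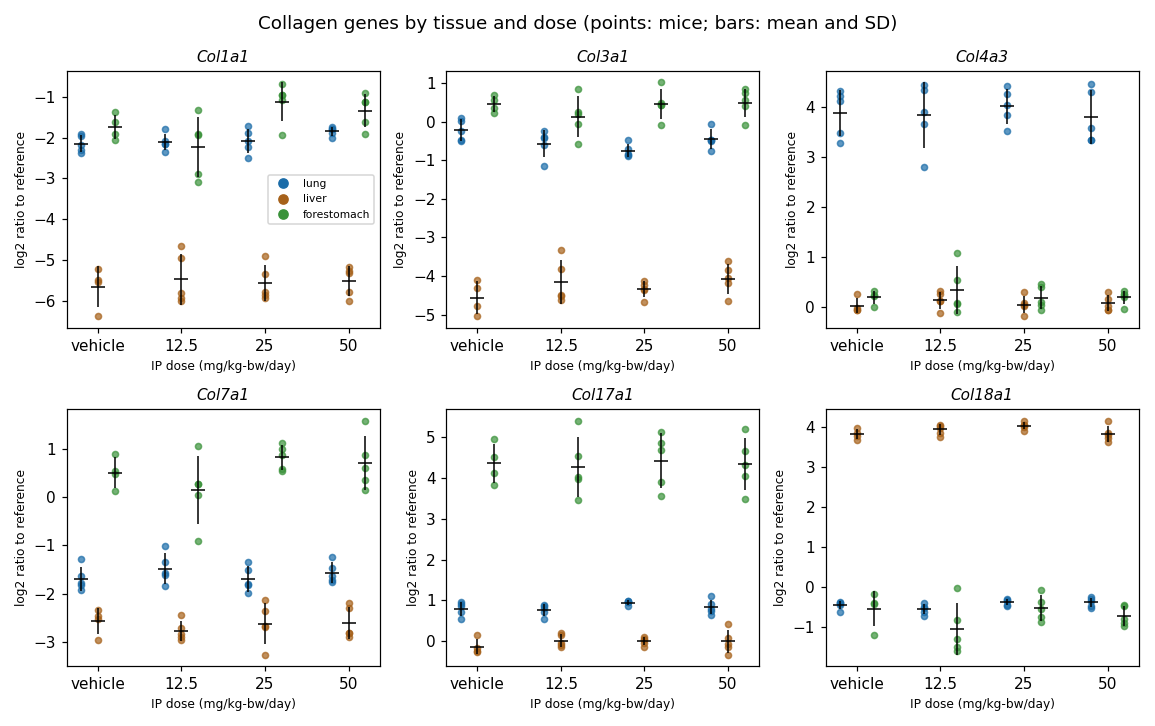
Log2 ratio of Col1a1, Col3a1, Col4a3, Col7a1, Col17a1 and Col18a1 in every mouse against dose in mg/kg-bw/day, by tissue, with the mean and SD of each group. Liver stays apart for Col18a1 (3.62 to 4.15) and forestomach for Col17a1 (3.45 to 5.41) at every dose, and no dose group was called.

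The lowest adjusted p of any member in any dose comparison, 0.334, was that of Col3a1 in lung at 25 mg/kg-bw/day. The 5 mice read -0.47, -0.72, -0.83, -0.90 and -0.86 there, against 0.10, -0.25, -0.49, -0.49 and 0.02 in vehicle, so the groups overlapped narrowly, at -0.47 and -0.49. The mean fell by 0.53 (interval -0.86 to -0.21, exact permutation p = 0.0238), and the exposed mouse was lower on each of the 5 slides. At 12.5 mg/kg-bw/day the 5 mice read -0.60, -0.43, -1.15, -0.41 and -0.26 (difference -0.35), and at 50 mg/kg-bw/day -0.49, -0.06, -0.46, -0.48 and -0.75 (-0.23), so the lowest mean was at the middle dose. Col1a2 differed by -0.31 at 25 mg/kg-bw/day (adjusted p = 0.52, exact permutation p = 0.0317). Median centring in place of loess left -0.24 for Col3a1 and -0.02 for Col1a2 at that dose. Col1a1 went the other way at 50 mg/kg-bw/day, with -1.74, -1.78, -1.79, -1.90 and -2.01 against vehicle lungs at -2.37 to -1.92, a difference of 0.30 (interval 0.04 to 0.57, adjusted p = 0.473, exact permutation p = 0.0317) that was higher on 5 of 5 slides. The difference of Col6a4 at that dose was 0.28 (exact permutation p = 0.0159), or 0.14 as a mean over its probes. The fat cell list (8 genes) and the mesothelium list (7 genes), which mark tissue at the lung's edge, were below vehicle at 50 mg/kg-bw/day for 8 of 8 and 7 of 7 genes. The mean of the fat cell genes was 1.28 to 4.17 in vehicle lungs and 1.39 to 2.30, 0.66 to 1.89 and 0.95 to 1.99 at the 3 doses. Every fat cell gene was above background on at least 1 vehicle lung array, and every mesothelium gene on all of them. The mean of the mesothelium genes was 0.34 to 1.09 in vehicle lungs and -0.14 to 1.11, -0.60 to 1.22 and -0.56 to 0.77. Their part in the Col3a1, Col1a2 and Col1a1 values was not tested.

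Type VI genes gave the lowest p in liver. Col6a1 read -2.73, -3.03, -2.73, -2.79 and -3.02 at 50 mg/kg-bw/day against -2.24, -2.84, -2.27 and -2.40 in vehicle. The groups overlapped through vehicle mouse 2, and the difference was -0.43 (interval -0.70 to -0.16, adjusted p = 0.649, exact permutation p = 0.0397), which turned to 0.13 when arrays were centred on their median in place of loess. Col6a2 differed by -0.29 and turned likewise, to 0.29. Col27a1 was below vehicle at every dose. Its vehicle values were 0.96, 1.36, 1.11 and 0.97, those at 12.5 mg/kg-bw/day 0.81, 0.74, 0.58, 0.13 and 0.80, those at 25 mg/kg-bw/day 0.79, 0.67, 0.30, 0.70 and -0.35, and those at 50 mg/kg-bw/day -0.15, 0.90, 0.94, 0.95 and 0.04. No exposed mouse reached the lowest vehicle mouse, and the differences were -0.49, -0.68 and -0.57 (exact permutation p = 0.00794, 0.0159 and 0.0873, adjusted p = 1, 0.904 and 0.718). The 5 liver arrays that stood apart in signal, none of them vehicle, gave its 5 lowest values (-0.35 to 0.30 against 0.58 to 1.36 on the other 14), and without them the differences at 25 and 50 mg/kg-bw/day were -0.38 and -0.17. The groups also did not overlap for Col6a5 at 25 mg/kg-bw/day and Col8a2 at 50 mg/kg-bw/day. Col6a5 was above background on 0 liver arrays and Col8a2 on only 5 of 19. The Col8a2 difference was -0.26, or -0.16 as a mean over its probes. The share of all probes whose groups did not overlap was not counted for this or any other dose comparison, so lack of overlap cannot be set against it.

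**Figure D4:**
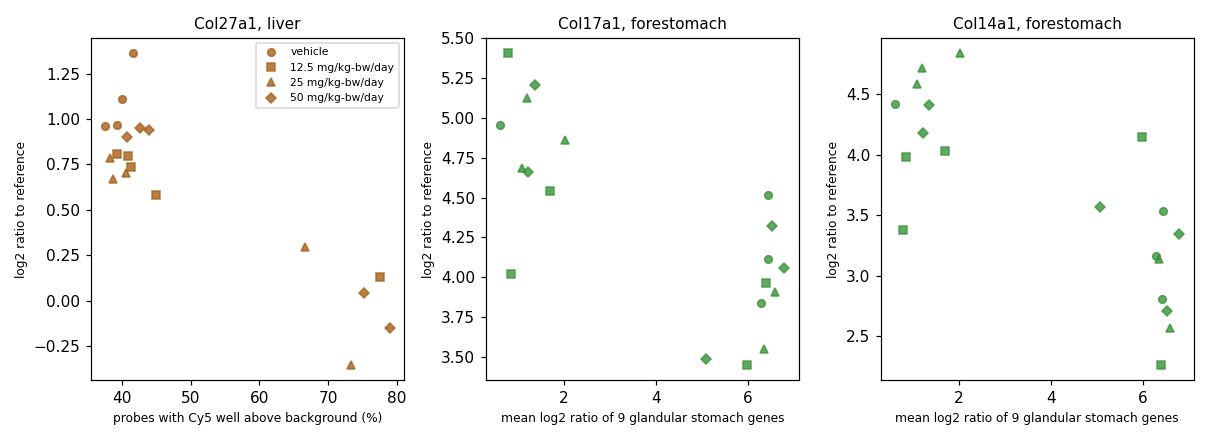
Members that moved with the content or signal of an array: Col27a1 in liver against the percentage of probes well above background, and Col17a1 and Col14a1 in forestomach against the mean log2 ratio of 9 glandular stomach genes, with 1 point per array and a marker shape for each dose. The 5 liver arrays at 66.6 to 78.9% hold the lowest Col27a1 values, and forestomach arrays with a glandular mean over 5 tend to read lower for Col17a1 and Col14a1.

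In forestomach the lowest p was that of Col9a2, a chain of the fibril-associated type IX collagen. It read 0.69, 0.71, 0.80 and 1.14 in vehicle mice and 0.51, 0.29, 0.27, 0.47 and 0.04 at 12.5 mg/kg-bw/day, without overlap (difference -0.52, interval -0.80 to -0.23, adjusted p = 0.977, exact permutation p = 0.00794, the smallest that 5 against 4 mice allow). Its differences at the higher doses were smaller, and without the glandular arrays the value at 12.5 mg/kg-bw/day was -0.35. Col4a4 was below vehicle at each dose, by 0.26, 0.33 and 0.35. The vehicle mice read 0.44, 0.40, 0.56 and 0.42, those at 25 mg/kg-bw/day 0.20, -0.07, 0.18, -0.07 and 0.39, and those at 50 mg/kg-bw/day 0.19, -0.14, 0.01, 0.21 and 0.26 (exact permutation p = 0.0159 and 0.00794, adjusted p = 1). These gaps stood at -0.35, -0.42 and -0.41 without the glandular arrays, which leaves 1 vehicle mouse, but at -0.09, -0.12 and -0.13 as a mean over all probes of the gene and at -0.08, -0.05 and -0.09 in the Cy5 signal alone. Type VI genes were higher than vehicle at 25 mg/kg-bw/day, Col6a1 by 0.51 and Col6a2 by 0.54 (exact permutation p = 0.0317 and 0.0635). Without the glandular arrays these gaps were 1.06 and 1.21, against the single vehicle mouse left, which had the lowest Col6a1 value of its group (-1.46). Col4a1 and Col1a2 were lower at 12.5 mg/kg-bw/day, by 0.66 and 0.50 (exact permutation p = 0.143 and 0.159), and without the glandular arrays by 0.20 and 0.04, and Col1a2 turned to 0.04 above vehicle with median centring.

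Linear trends over dose were not called for any member, beside 0.14, 0 and 0% of probes in lung, liver and forestomach. The lowest adjusted p were 0.411 in lung (Col1a1, 0.31 per 50 mg/kg-bw/day), 0.586 in liver (Col6a1, -0.37, which was 0.09 with median centring) and 1 in forestomach. The effect of 50 mg/kg-bw/day was not called different between tissues for any member either, beside 0.0162, 0.0144 and 0.00359% of probes for lung against liver, forestomach against lung and forestomach against liver. At an unadjusted limma p under 0.05, 4 of the 43 members passed for lung against liver (lowest adjusted p = 0.599), beside 3940 of the 55681 probes. The lung effect minus the liver effect was -0.72 for Col3a1, 0.54 for Col4a5, 0.59 for Col6a1 and 0.59 for Col27a1. For forestomach against liver 2 members passed, Col4a5 at 0.65 and Col6a1 at 0.63 (lowest adjusted p = 0.767), beside 3433 probes. For forestomach against lung 0 members passed, beside 1622 probes. Of the 6 lists on collagen making, binding and breakdown, no gene was called at any dose in any tissue.

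Members of a family can rise and fall together between mice. Correlations of the log2 ratio across the arrays of a tissue are given as a description, since arrays share slides, signal level and tissue content. In lung and liver the dose group means were removed first. In the 2 forestomach sets only the mean of the set was removed, so differences between doses remain in those values and they are not like the lung and liver values. Col1a1 and Col1a2 gave r of 0.79 over 20 lung arrays (0.81 over the 16 that did not stand apart) and 0.54 over 19 liver arrays (0.43 over 14). Col4a1 and Col4a2, the pair with adjoining starts shown above, gave 0.86 over 20 lung arrays and 0.67 over the 16, but 0.02 over 19 liver arrays and 0.45 over 14. In forestomach this pair gave 0.94 over the 10 arrays with glandular markers and 0.87 over the 9 without. Col6a1 and Col6a2 gave 0.64 in lung, 0.74 in liver and 0.96 and 0.97 in the 2 forestomach sets. Col4a5 and Col4a6, with starts further apart, gave 0.41 in lung (0.68 over the 16) and 0.79 and 0.46 in the forestomach sets. Col4a3 and Col4a4 gave 0.74 over all lung arrays and 0.26 over the 16. All other pairs of measurable members had a median r of 0.14 in lung (320 pairs), 0.32 in liver (102 pairs) 0.40 over the forestomach arrays with glandular markers and 0.56 over those without (249 pairs each), so the pairs of the I and VI chains were above the median in each tissue, whereas Col4a5 and Col4a6 lay below it in the forestomach arrays without glandular markers.

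Among the genes above background, those most like Col4a1 across the 20 lung arrays were Mprip, Arhgef18, Ywhaq, BC028528 and Lims1 (r of 0.88 to 0.91 over 15575 genes compared). Those most like Col1a1 in the 19 liver arrays were Anxa1, Fbln7, Rhox5, Scarf2 and Tab1 (0.85 to 0.87 over 12162 genes). For Col4a1 in liver they were Pyroxd2, Lamc1, Myl9, Fbln5 and Cyp2c55 (0.78 to 0.83), and Lamc1 encodes a laminin chain of basement membranes.

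Within forestomach some members also varied with the glandular content of the piece, and others did not. Col17a1 read 3.45 to 4.52 in the 10 arrays with glandular markers and 4.02 to 5.41 in the 9 without, and Col14a1 read 2.26 to 4.14 and 3.37 to 4.84. For Col4a6 the ranges were 1.13 to 2.53 and 2.07 to 3.18, and for Col7a1 -0.92 to 0.88 and 0.03 to 1.57. Col18a1 ran the other way by its median, at -0.41 with and -0.89 without. The medians were close for Col4a1 (0.70 with and 0.71 without), Col4a2 (0.72 and 0.67) and Col6a2 (-0.87 and -0.83). These sets were made from the data and are not groups of the study.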

How the data were processed

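RNA from lung, liver and forestomach was hybridised to 58 Agilent 2-colour arrays, mouse RNA in Cy5 against universal mouse reference RNA in Cy3. Per the file headers, the deposited spot intensity values (median signals) and the log10 ratio of the scanner software came from Feature Extraction 10.7.3.1 (lung and forestomach) or 11.0.1.1 (liver), on an array design annotated on mm9. The authors also deposited normalized log2 ratios. For lung and forestomach these followed the scanner values of the same probes (r of 0.9958 to 0.9994), so scale and direction were settled. Their column medians ran from -0.0644 to -0.0112, and centring was not given in the sources used here. The liver columns did not match their probe names (r of -0.0068 to 0.0067, medians -0.0246 to 0.0781) and were not used.

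Control spots were left out, and log2(Cy5/Cy3) median signals were loess-normalized within each array without background subtraction. Outlier spots (at most 0.565% of an array) stayed in the loess fit and were left out afterwards, when the spots of a probe were averaged. Genes were named through the array's transcript accessions and RefSeq. limma 3.58.1 in R 4.3.3 (with the data.table package, version 1.17.8) was fitted to all 55681 probes, per tissue for dose and over 12 groups for tissue, two-sided, with Benjamini-Hochberg adjustment over all probes. The study's methods used a different shrinkage test (MAANOVA) with the same thresholds. Single values were checked by two-sided exact permutation tests over mice. The number of arrays, 4 or 5 a group, limits the precision. Scripts were tested on simulated data. Alternatives covered background, normalization, channel, dim probes, probe choice, slide, mouse as a block, samples in the fit, thresholds and each mouse left out. Alternatives on arrays with glandular markers or standing apart in signal were chosen after seeing the data. Mouse numbers pair tissues by animal per the labels: residuals of the same mouse correlated over 0.1 in 15 of 19 forestomach and lung pairs (median 0.154), 5 of 19 lung and liver pairs (0.0437) and 1 of 19 forestomach and liver pairs (0.0155).

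Genes named were the type I to VII and XVII and XVIII chains listed in the text, for each tissue pair the 5 members called higher and 5 called lower with the largest difference, and for each dose and trend up to 5 with the smallest unadjusted p; members outside this rule, such as Col14a1, Col16a1 and Col23a1, were named after their values were seen. The collagen genes and the gene lists were chosen with earlier results of these data known. Promoter sequences are from RefSeq on GRCm38.p6. One single-gene value is not reported here.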

Additional observations from a re-analysis of the deposited data

Results flagged for a closer look

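Single mice far from the rest of their group were found in 5 of 102 groups examined over 28 members, where chance gives about 1 in 20. Col4a3 in vehicle liver read 0.262 in mouse 1, with the nearest other mouse at -0.0212, in a tissue where it was not above background. Col4a5 in vehicle forestomach read 0.2054 in mouse 3, with the nearest at 0.6865. Col4a6 in liver at 25 mg/kg-bw/day read -2.6385 in mouse 15, whose liver array stood apart in signal. Col6a1 read -1.4644 in the forestomach of vehicle mouse 1, the only vehicle piece without glandular markers, and -0.4514 in the lung of the same mouse, there above its group.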

How the results depend on the processing

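The absence of called members in dose comparisons, trends and differences of the dose effect held under every adjusted-p alternative and without each mouse (0 to 0 members). With an unadjusted p under 0.05 and a fold change of at least 1.2, members called by rising dose were 1, 2 and 2 for lung, 0, 3 and 5 for liver and 4, 4 and 1 for forestomach. The share of all probes that passed this looser rule was not counted, so these counts cannot be set against it. Vehicle tissue counts of 23, 18 and 23 (lung against liver, forestomach against lung, forestomach against liver) ranged over 23 to 23, 15 to 18 and 22 to 23 without each mouse (15 without mouse 1, 3 or 5) and over 21 to 27, 14 to 19 and 21 to 27 otherwise. Counts called in all 4 dose groups (20, 12 and 18) ranged over 20 to 21, 9 to 13 and 18 to 19 without each mouse (9 without mouse 1), and over 19 to 24, 8 to 13 and 17 to 24 otherwise. With the mouse as a replicate block, the pairing gave 23, 18 and 23 in vehicle mice, 20, 11 and 18 in all 4 dose groups and 0 for the dose effect. Of 48 tissue values named, 47 kept their call under that block and Col13a1 between forestomach and lung lost it (-0.62). Median centring, whose cause of change was not tested, ended 11 tissue calls, among them all 3 of Col5a3 (-0.75, 0.54 and -0.20), and turned the sign of 8 uncalled dose values: Col4a6 in lung (0.0412) and liver (0.1204) at 25 mg/kg-bw/day, Col6a1 (0.1303) and Col6a2 (0.2916) in liver at 50 mg/kg-bw/day, Col1a2 in forestomach at 12.5 mg/kg-bw/day (0.0444) and the liver trends of Col6a1 (0.0866), Col5a2 (0.0534) and Col6a2 (0.2374). The scanner software's ratio turned Col4a6 in liver at 25 mg/kg-bw/day (0.6418), the liver trend of Col5a2 (0.063) and Col8a1 between lung and liver (0.9485), which the Cy5 signal alone turned too (0.6799). Where a probe was near background, mainly in liver, a difference could be bounded only.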
